A study of Mus musculus with 13 samples.

Results

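The BCL-2 family decides whether a T cell opens its mitochondria and dies. The 10 members followed here were picked by gene symbol, and all 10 were present among the 24417 named genes of both count tables. They were the survival genes Bcl2, Bcl2l1 (BCL-XL), Mcl1 and Bcl2a1b (an A1 gene), the pore formers Bax and Bak1, and the BH3-only genes Bcl2l11 (BIM), Bbc3 (PUMA), Pmaip1 (NOXA) and Bid. RNA-seq was carried out on regulatory T (Treg) cells and on Treg “wannabes”, cells that transcribe a reporter from the Foxp3 locus without making Foxp3 protein, sorted from pooled spleen and lymph nodes of C57BL/6 mice. The 13 libraries fall into 5 groups and 2 experiments.

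In the male experiment every mouse was given 4-hydroxytamoxifen (4-OHT), the drug that switches on Cre-ERT2, at day 14 after birth and was analysed at day 21. Control Treg cells (n = 3) came from healthy Foxp3DTR-GFP/yCd4creERT2 mice, whose Foxp3 allele is functional. Rescued Treg cells (n = 3) came from Foxp3LSL/yCd4creERT2 mice, in which 4-OHT lets a Cre expressed from the Cd4 locus remove a Thy1.1-STOP cassette and so restores Foxp3. Male “wannabes” (n = 2) came from sick Foxp3LSL/yCd4wt mice, which lack Cre and keep the cassette. In the female experiment the mice were 9-11 weeks old, and each was given diphtheria toxin on 4 days, the last of them 1 day and the others 3, 5 and 7 days ahead of analysis. Resting “wannabes” (n = 3) came from Foxp3LSL/WTCd4wt females, which keep wild-type Treg cells beside the “wannabes”. Activated “wannabes” (n = 2) came from Foxp3LSL/DTRCd4wt females, whose other Treg cells carry the toxin receptor and were killed, so that the mice fell ill. The series' design text gives the last 2 groups 2 and 3 replicates, the reverse of the sample titles, genotypes and methods, and the sample titles were used. No female mouse carried Cre. Control and rescued Treg cells differed in their Foxp3 allele as well as in the disease around them, and the 2 experiments differed in sex, age and treatment, which cannot be told apart from the cell state in any value set across them.

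BCL-2, BCL-XL, MCL-1 and A1 hold the pore formers BAX and BAK in check on the outer mitochondrial membrane. BH3-only proteins relieve that block by binding the survival proteins or by acting on BAX and BAK directly, after which cytochrome c is released and caspases are activated. Treg cells are known to depend on MCL-1 and on interleukin-2 signalling for survival and to be kept in number by BIM, while PUMA and NOXA are targets of p53 and BID links death receptors to mitochondria.

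Foxp3 transcripts followed the labels, with normalized counts of 28381, 29816 and 36405 in rescued Treg cells, 5479, 7061 and 8264 in control Treg cells and 2762 and 3273 in male “wannabes”. A normalized count is a read count scaled to the mean library of its experiment, so that levels are compared within an experiment and not between tables. Libraries held 25556783 to 36659638 counts. Every pair of replicates differed by more than sampling noise, with a chi-square of at least 13.8 per degree of freedom. Replicates varied more among males than among females, at a coefficient of variation (edgeR's common estimate) of 0.51 against 0.171. Summed T cell markers stood at 4214 to 6760 CPM (counts scaled to a common library total) in all 13 libraries, whereas the summed markers of CD8 T cells, B cells, monocytes, neutrophils, dendritic cells, NK cells and erythroid cells ranged from 0 to 44.9 CPM each. Plasma cell markers summed to 31.4 to 335 CPM, with 1 to 3 of the 4 listed genes detected in a library. Per the study's methods, the female libraries came from 3 and 2 mice and the male libraries were biological replicates.

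In each comparison 1 or 2 of the 10 members were called. A gene was called when its adjusted p in edgeR's quasi-likelihood test was under 0.05 over all genes tested. Between rescued and control Treg cells 1 of 10 members was called, beside 2.3% of all genes, and that member was Bcl2, which fell, as did 0.864% of all genes. Between control Treg cells and male “wannabes” 2 of 10 were called, beside 16.2% of all genes, and they were Bcl2a1b and Bcl2l11, both lower in control Treg cells. Between rescued Treg cells and male “wannabes” 2 of 10 were called, beside 14.1%, with Bcl2 lower and Bbc3 higher in rescued Treg cells. Between activated and resting “wannabes” 2 of 10 were called, beside 22.5%, with Bcl2l1 and Bid both higher in activated cells. In the last 3 of these comparisons the share of members called was close to the share among all genes, and in the first it rests on a single member. The median log2 fold change of the members was 0.31 between rescued and control Treg cells, beside -0.02 over all genes tested, and 9 of the 10 were positive. Among these 9, Bcl2l1, Mcl1 and Bax turned negative when some single library was left out (down to -0.137, -0.211 and -0.012). In the other comparisons the members' median was -0.03 for control Treg cells against “wannabes” (0.09 over all genes), 0.09 for rescued Treg cells against “wannabes” (0.00 over all genes) and 0.17 for activated against resting “wannabes” (-0.01 over all genes). The 3 comparisons within the male experiment share libraries and are not independent of each other.

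**Figure D1:**
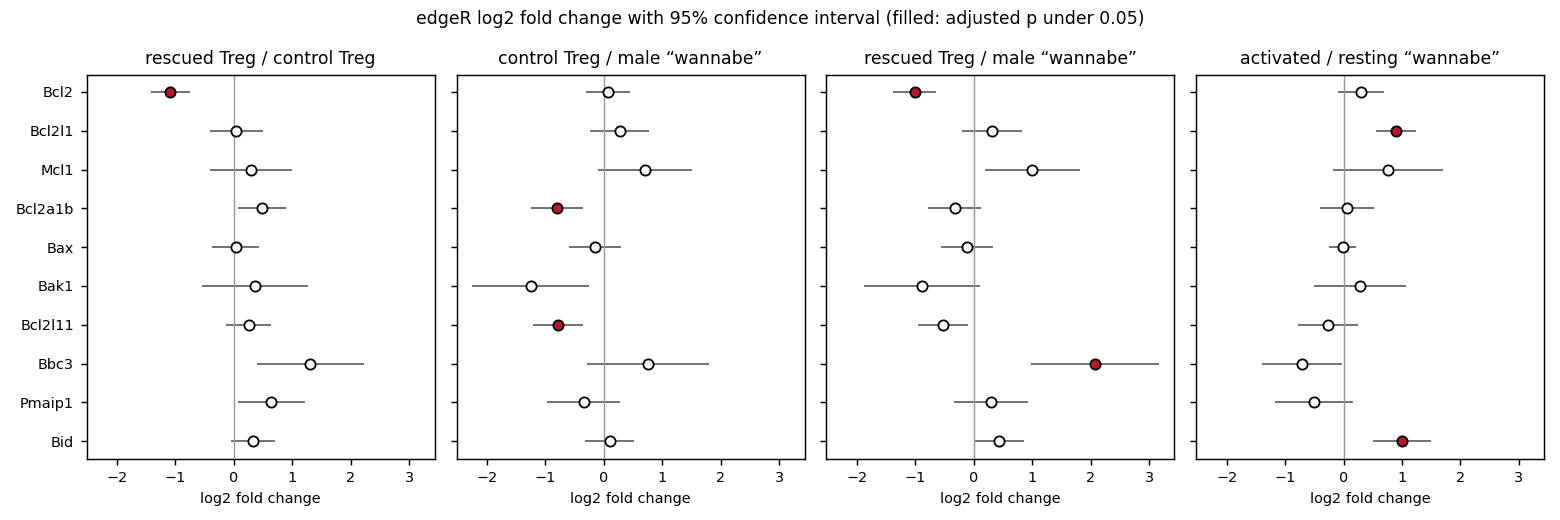
Log2 fold change (x axis) of the 10 members in 4 comparisons, with 95% confidence intervals, filled where the adjusted p was under 0.05. Bcl2 stands at -1.09 and -1.01 in the comparisons of rescued Treg cells and near 0 in control Treg cells against “wannabes”, and Bcl2l1 and Bid stand at 0.90 and 1.00 in activated against resting “wannabes”.

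Per kilobase of exon, Bax and Bcl2a1b led the family in both Treg groups, in male “wannabes” and in resting “wannabes”. In control Treg cells Bax stood at 99.9 ± 6.11 CPM per kb (SD, n = 3), above Bcl2a1b at 66.6 ± 3.33 and Bcl2 at 61.8 ± 4.25 (SD, n = 3), and the libraries of Bcl2a1b and Bcl2 overlapped. Bcl2 held rank 3 there and rank 6 in rescued Treg cells, at 29.1 ± 3.25 CPM per kb (SD, n = 3). Bcl2l1, Bid and Mcl1 stood between Bcl2a1b and Bcl2 in rescued Treg cells, and from Bcl2l1 to Bcl2 the libraries of neighbours in this order overlapped. In activated “wannabes” Mcl1 came first at 102 ± 22.4 CPM per kb (SD, n = 2), with libraries that overlapped those of Bcl2a1b. Bak1 was the lowest member in 4 groups, between 0.623 and 1.85 CPM per kb. In male “wannabes” Bak1 reached 3.41 ± 0.615 CPM per kb (SD, n = 2), and Bbc3 was the lowest there at 2.38 ± 1.30 with overlapping libraries. These levels used exon lengths of GENCODE M21 and assume that the deposited counts cover the same exons.

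**Figure D2:**
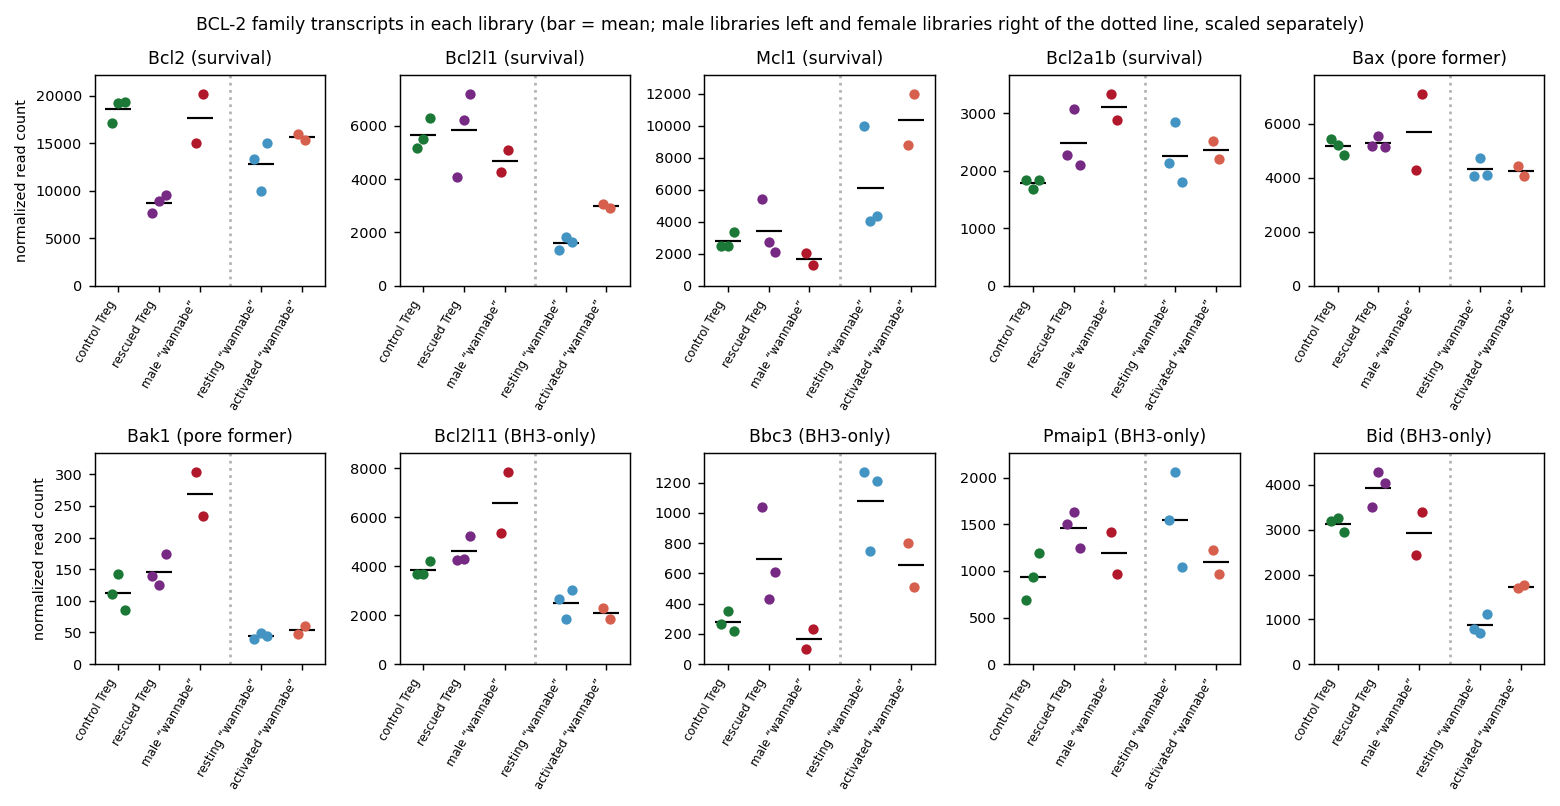
Normalized read count (y axis) of each member in each of the 13 libraries, with group means as bars and the male and female experiments divided by a dotted line. The 3 rescued Treg libraries lie below all other male libraries for Bcl2, and both activated libraries lie above the 3 resting libraries for Bcl2l1 and Bid.

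Bcl2 (chr1:106538178-106714274 in GRCm38, minus strand), the survival gene that IL-2 and IL-7 signals are known to sustain in T cells, was lower in rescued Treg cells than in either other male group. Its normalized counts were 7677, 8959.6 and 9595 in rescued Treg cells, 17099.7, 19270.5 and 19345 in control Treg cells and 15038 and 20198 in male “wannabes”. No rescued library reached any of the other male libraries, while control Treg and “wannabe” libraries overlapped. The fall from control to rescued Treg cells was 2.12-fold (log2 -1.09 ± 0.15 SE, 95% interval -1.42 to -0.75, edgeR adjusted p = 0.00646). Against male “wannabes” rescued Treg cells were 2.01-fold lower (log2 -1.01 ± 0.17 SE, edgeR adjusted p = 0.00234). Both calls held when any of the 8 male libraries was left out, with log2 values from -1.16 to -1.001 against control Treg cells and from -1.21 to -0.83 against “wannabes”. Control Treg cells and “wannabes” differed by log2 0.08, with a 95% interval of -0.30 to 0.45. In the female experiment Bcl2 stood at 15995 and 15308 in activated and 13323, 9988 and 14985 in resting “wannabes”. Both activated libraries were above the 3 resting ones, and the log2 difference of 0.29 (95% interval -0.10 to 0.68) did not pass the test (edgeR adjusted p = 0.233). In bulk libraries fewer cells that express a gene and less RNA per cell cannot be told apart, which applies to every level given here. The antisense gene D630008O14Rik, not analysed here, shares 558 exonic bases with Bcl2, and without strand the reads of such a pair cannot be told apart.

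The change in Bcl2 differed between the 2 cell states. Taken over all 13 libraries, the change from control to rescued Treg cells minus the change from resting to activated “wannabes” was log2 -1.37 ± 0.24 SE (95% interval -1.88 to -0.86, edgeR adjusted p = 0.013). Bcl2 was the 1 member of 10 called in this contrast, beside 1.53% of all genes. The value ranged from -1.501 to -1.22 when single libraries were left out, and the call was lost without activated replicate 1 (adjusted p = 0.0716) or activated replicate 2 (adjusted p = 0.0603). Bbc3 had a larger difference in the opposite direction, log2 2.04 ± 0.57 SE, which did not pass the test (edgeR adjusted p = 0.105), while DESeq2 gave an adjusted p of 0.0119. Sex, age, Foxp3 allele and treatment all differ between the arms of this contrast and cannot be told apart from the cell state.

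The 200 bases that end 51 bases before the RefSeq start sites of Bcl2 and Bcl2l11 are shown because BIM is a direct antagonist of BCL-2 and the balance of their transcripts is described further on. They come from GRCm38.p6 and are written on the strand of the gene, from chr1:106714341-106714540 (minus strand) and chr2:128125788-128125987 (plus strand), with a forkhead match in capitals.
Bcl2: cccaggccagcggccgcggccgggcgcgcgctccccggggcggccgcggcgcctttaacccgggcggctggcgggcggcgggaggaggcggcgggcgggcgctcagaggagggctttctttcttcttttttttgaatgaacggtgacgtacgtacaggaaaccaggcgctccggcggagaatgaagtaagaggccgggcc
Bcl2l11: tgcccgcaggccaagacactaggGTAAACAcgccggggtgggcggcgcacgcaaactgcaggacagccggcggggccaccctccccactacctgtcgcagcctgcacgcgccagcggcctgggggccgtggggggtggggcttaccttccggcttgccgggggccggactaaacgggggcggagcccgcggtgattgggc
Of the 10 members 9 had at least 1 promoter in the RefSeq table, 14 promoters in all. Windows from 250 bases before to 50 after each start were searched on both strands for a STAT motif (TTCNNNGAA, in 8.3% of 32851 promoters), a forkhead motif (TGTTTAC, in 3.65%) and an NF-kB motif (in 0.411%). The forkhead letters occurred in 1 start of Bcl2l11, the one shown, and in 1 start of Bbc3, and not in the other starts of these genes. None of the other letters occurred in a window of the 9 members searched. The bases shown for Bcl2 were 71% G and C with 28 CpG pairs, and those for Bcl2l11 were 73.5% with 20. A match of letters is a description of these windows and not a binding site.

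Bcl2l1 (chr2:152780668-152831728, minus strand), which encodes BCL-XL, a survival protein known to rise with T cell activation, was higher in activated than in resting “wannabes”. Its normalized counts were 3063 and 2929.8 in activated and 1332, 1839.6 and 1652 in resting cells. The groups did not overlap, and the rise was 1.86-fold (log2 0.90 ± 0.14 SE, 95% interval 0.56 to 1.23, edgeR adjusted p = 0.00718). With activated replicate 1 left out the adjusted p was 0.0656 at log2 0.86, and with replicate 2 left out it was 0.0546 at log2 0.92, so that the call needed both activated libraries. In the male experiment the values were 5147, 5493 and 6291 in control Treg cells, 4059.9, 6215 and 7199 in rescued Treg cells and 4278 and 5081 in “wannabes”. Rescued and control libraries overlapped, and their log2 difference was 0.04 with an interval of -0.40 to 0.49. The difference between that change and the change in “wannabes” was log2 -0.84 ± 0.29 SE and did not pass the test (edgeR adjusted p = 0.21).

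Mcl1, whose short-lived protein product Treg cells are known to need, was called in no comparison, and its libraries varied more than those of Bcl2. In resting “wannabes” the counts were 9974, 4036 and 4380.4, so that replicate 1 stood above activated replicate 1 in a group whose other two libraries were below both activated ones (8781 and 12001). The log2 difference between activated and resting cells was 0.76 ± 0.39 SE (edgeR adjusted p = 0.205). Without resting replicate 1 it was 1.31 with an adjusted p of 0.005. In the male experiment the counts were 2511, 2459.7 and 3370.4 in control Treg cells, 5416, 2709 and 2098 in rescued Treg cells and 2065 and 1330.2 in “wannabes”. Every Treg library was above both “wannabe” libraries, at log2 1.00 ± 0.37 SE for rescued (edgeR adjusted p = 0.1) and 0.71 ± 0.37 SE for control Treg cells (edgeR adjusted p = 0.214). The first of these passed the threshold in DESeq2 (adjusted p = 0.0415) and in edgeR without rescued replicate 3 (adjusted p = 0.0435, log2 1.26).

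Bcl2a1b (chr9:89199209-89207827, plus strand) is 1 of several near-identical mouse genes for A1, an NF-kB target that protects activated lymphocytes. Its counts are uncertain for that reason, since the coding sequences of Bcl2a1b and Bcl2a1d differ at 6 of 516 bases and those of Bcl2a1a and Bcl2a1b at 11. Of 467 windows of 50 bases (1 read length) in the Bcl2a1b coding sequence, 246 (52.7%) also occur in Bcl2a1d, and the deposited counts do not show how shared reads were assigned. Another gene on the same strand, Gm29094, not analysed here, shares 401 exonic bases with Bcl2a1b. The first 60 coding bases in GENCODE M21 are given with the 6 positions at which the 3 genes differ in capitals.
Bcl2a1a: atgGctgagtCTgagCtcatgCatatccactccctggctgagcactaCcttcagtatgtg
Bcl2a1b: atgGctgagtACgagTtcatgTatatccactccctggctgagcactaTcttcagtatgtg
Bcl2a1d: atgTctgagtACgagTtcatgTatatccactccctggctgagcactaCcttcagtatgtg
Over the whole coding sequence the 3 genes differ at 12 positions. Bcl2a1b had normalized counts of 1843, 1683 and 1831 in control Treg cells, 2279, 3078 and 2100.0 in rescued Treg cells and 3338 and 2878 in male “wannabes”. Control Treg cells were below both other groups without overlap. They were 1.74-fold below “wannabes” (log2 -0.80 ± 0.21 SE, edgeR adjusted p = 0.023), while the log2 rise of 0.48 ± 0.19 SE to rescued Treg cells did not pass the test (edgeR adjusted p = 0.237). The first call was lost without control replicate 1, 2 or 3 (adjusted p = 0.0614, 0.0761 and 0.062) and without “wannabe” replicate 1 (adjusted p = 0.0853). Bcl2a1a and Bcl2a1d were called in the same comparison, at log2 -1.32 ± 0.35 and -1.38 ± 0.26 SE (edgeR adjusted p = 0.0243 and 0.00503). The call of Bcl2a1a was lost without control replicate 2 (adjusted p = 0.0799), control replicate 3 (adjusted p = 0.072) or “wannabe” replicate 1 (adjusted p = 0.0887), and Bcl2a1c had at most 21.6 normalized counts in any library. Activated and resting “wannabes” overlapped for Bcl2a1b (2518 and 2196 against 2129, 2851 and 1803).

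Bax, the pore former that moves from the cytosol to mitochondria, had the smallest fold change of the 10 members between rescued and control Treg cells and between activated and resting “wannabes”. Its counts were 5457, 5208 and 4830.1 in control Treg cells, 5171, 5547 and 5150.3 in rescued Treg cells and 4303 and 7119 in male “wannabes”. The log2 difference between rescued and control Treg cells was 0.03 with a 95% interval of -0.37 to 0.44. Activated (4450.4 and 4075) and resting “wannabes” (4065, 4753 and 4123) differed by log2 -0.02 with an interval of -0.25 to 0.22. Groups overlapped in all 4 comparisons, and the 2 male “wannabe” libraries lay on either side of all Treg libraries. Gm45808, a gene on the same strand that was not analysed here, shares 192 exonic bases with Bax.

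Bak1, which encodes BAK, the pore former resident on mitochondria, was near the low end of the table. It had 112, 142 and 84.9 normalized counts in control Treg cells, 139, 124 and 174 in rescued Treg cells and 304 and 235 in male “wannabes”. Both “wannabe” libraries were above all Treg libraries. The difference from control Treg cells was log2 -1.25 ± 0.45 SE (edgeR adjusted p = 0.0839, DESeq2 adjusted p = 0.0171), and that from rescued Treg cells was -0.88 ± 0.45 SE (edgeR adjusted p = 0.233). Female counts were 48.2 and 60.1 in activated and 38.9, 49.9 and 44.7 in resting “wannabes”, which overlapped. Ggnbp1, on the opposite strand, shares up to 437 exonic bases with Bak1 and had 0 reads in every library.

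Bcl2l11 (chr2:128126038-128162547, plus strand), which encodes BIM, the BH3-only protein best known for deleting T cells and limiting Treg cell numbers, was lower in control Treg cells than in male “wannabes”. Its normalized counts were 3669, 3691 and 4205 in control Treg cells, 4258, 4312 and 5247 in rescued Treg cells and 5340.4 and 7849 in “wannabes”. The 3 groups were ordered without overlap, with rescued Treg cells in the middle. Control Treg cells were 1.71-fold below “wannabes” (log2 -0.78 ± 0.20 SE, edgeR adjusted p = 0.0211). The 2 “wannabe” libraries differed from each other by more than the gap between the Treg groups, and the call was lost without “wannabe” replicate 2 (log2 -0.52, adjusted p = 0.113) and without control replicate 1 or 2 (adjusted p = 0.0714 and 0.0696). Rescued Treg cells differed from “wannabes” by log2 -0.52 ± 0.20 SE (edgeR adjusted p = 0.108, DESeq2 adjusted p = 0.0498), with an adjusted p of 0.025 without “wannabe” replicate 1. They differed from control Treg cells by 0.26 (95% interval -0.13 to 0.65). Activated “wannabes” had 2291 and 1858 and resting “wannabes” 2641, 1838 and 3015, and these overlapped.

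Bbc3 (chr7:16308393-16318205, plus strand), the gene of the p53 target PUMA, was higher in rescued Treg cells than in male “wannabes”. Its normalized counts were 1041, 430.3 and 612 in rescued Treg cells, 267, 350.2 and 222 in control Treg cells and 101 and 229 in “wannabes”. Every rescued library was above every other male library. The difference from “wannabes” was 4.2-fold (log2 2.07 ± 0.50 SE, 95% interval 0.98 to 3.17, edgeR adjusted p = 0.0179). It was lost without rescued replicate 1 (log2 1.66, adjusted p = 0.0557) and without “wannabe” replicate 1 (log2 1.59, adjusted p = 0.0888). Against control Treg cells the difference was log2 1.31 ± 0.42 SE and did not pass the test in edgeR (adjusted p = 0.14), while DESeq2 gave an adjusted p of 0.0304. In the female experiment Bbc3 had 801 and 509.8 in activated and 1269.6, 748 and 1214 in resting “wannabes” (log2 -0.72 ± 0.29 SE, edgeR adjusted p = 0.12). Without resting replicate 2, the lowest of its group, the adjusted p was 0.0384 at log2 -0.92.

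Pmaip1 encodes NOXA, which binds MCL-1 and A1. Its normalized counts were 686, 929 and 1193 in control Treg cells, 1508, 1633 and 1248 in rescued Treg cells and 1416 and 962 in male “wannabes”. Rescued libraries were all above control libraries, at log2 0.64 ± 0.26 SE (edgeR adjusted p = 0.246), and both overlapped with “wannabes”. Activated (1219 and 962) and resting “wannabes” (1543, 2061 and 1044) overlapped, at log2 -0.51 ± 0.28 SE (edgeR adjusted p = 0.229). Without resting replicate 3, the lowest of its group, that adjusted p was 0.0493 at log2 -0.72.

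Bid (chr6:120891930-120916853, minus strand), which couples caspase-8 at death receptors to mitochondria, was 2.01-fold higher in activated than in resting “wannabes”. The counts were 1700.2 and 1761 in activated and 777, 685 and 1127 in resting cells, which did not overlap. The log2 rise was 1.00 ± 0.21 SE (95% interval 0.51 to 1.5, edgeR adjusted p = 0.0187). As for Bcl2l1, the call was lost without activated replicate 1 (log2 1.03, adjusted p = 0.111) or replicate 2 (log2 0.97, adjusted p = 0.125). Bid and Bcl2l13 share 628 exonic bases on opposite strands, and the amplification kit does not mark strand. Bcl2l13 itself changed by log2 -0.06 ± 0.10 SE between activated and resting cells (edgeR adjusted p = 0.688). Male counts of Bid were 3196, 3260.4 and 2952 in control Treg cells, 3505, 4289 and 4035 in rescued Treg cells and 2447 and 3407 in “wannabes”. All rescued libraries were above all control libraries, by log2 0.33 ± 0.17 SE, which did not pass the test (edgeR adjusted p = 0.383).

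Between rescued and control Treg cells 6 of the 10 members had groups without overlap, beside 24.2% of all genes. Bcl2 was lower in every rescued library, and Bcl2a1b, Bcl2l11, Bbc3, Pmaip1 and Bid were higher in every rescued library, beside 12.6% of all genes for the higher direction. Of these 5, none passed the edgeR test, 3 had an unadjusted p under 0.05 (Bcl2a1b, Bbc3 and Pmaip1) and 1 passed in DESeq2 (Bbc3). The share of all genes at an unadjusted p under 0.05 was not determined. Counts at that threshold, here and for the lists below, therefore carry no comparison with all genes. The count of members without overlap was 5 of 10 between control Treg cells and “wannabes” (46.1% of all genes), 6 of 10 between rescued Treg cells and “wannabes” (42.7%) and 3 of 10 between activated and resting “wannabes” (56.5%).

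The balance of Bcl2 to Bcl2l11 transcripts was lowest in rescued Treg cells. Expressed as the ratio of their counts within a library, it was 1.80 to 2.08 in rescued Treg cells, 2.57 to 2.82 in male “wannabes” and 4.60 to 5.22 in control Treg cells. On the log2 scale the means were 0.93 ± 0.11 (SD, n = 3), 1.43 ± 0.09 (SD, n = 2) and 2.27 ± 0.10 (SD, n = 3). Each male group kept to its own range. In rescued Treg cells Bcl2 was lower than in control Treg cells, and the difference in Bcl2l11 did not pass the test, while in “wannabes” Bcl2 was near the control level and Bcl2l11 was higher. The ratio was 4.97 to 5.44 in resting and 6.98 to 8.24 in activated “wannabes”, again without overlap. Gene length is common to all libraries and cancels between groups, but these are ratios of read counts and not of molecules.

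The ratio of Bcl2 to Bax showed the same order for rescued Treg cells, with 1.48 to 1.86 in rescued, 3.13 to 4.01 in control Treg cells and 2.84 to 3.49 in male “wannabes”. Activated and resting “wannabes” overlapped for it, at 3.59 to 3.76 and 2.10 to 3.63. The ratio of Mcl1 to Bcl2l11 spread widely within groups. It was 0.40 to 1.27 in rescued Treg cells and 0.67 to 0.80 in control Treg cells, which overlapped, and 0.17 to 0.39 in male “wannabes”, below both. Activated “wannabes” had 3.83 to 6.46 and resting “wannabes” 1.45 to 3.78, which did not overlap. Among the 4 survival genes, scaled per kilobase, Bcl2 made up 15.3% ± 2.41 in rescued Treg cells and 32.4% ± 1.88 in control Treg cells (SD, n = 3), and Bcl2a1b made up 48.2% ± 5.64 and 35.0% ± 2.35. Mcl1 accounted for 36.6% ± 6.65 (SD, n = 2) of the same sum in activated and 27.6% ± 11.1 (SD, n = 3) in resting “wannabes”, which overlapped at 31.9 to 41.3% and 19.2 to 40.1%. In male “wannabes” it was 6.85% ± 2.06 (SD, n = 2).

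**Figure D3:**
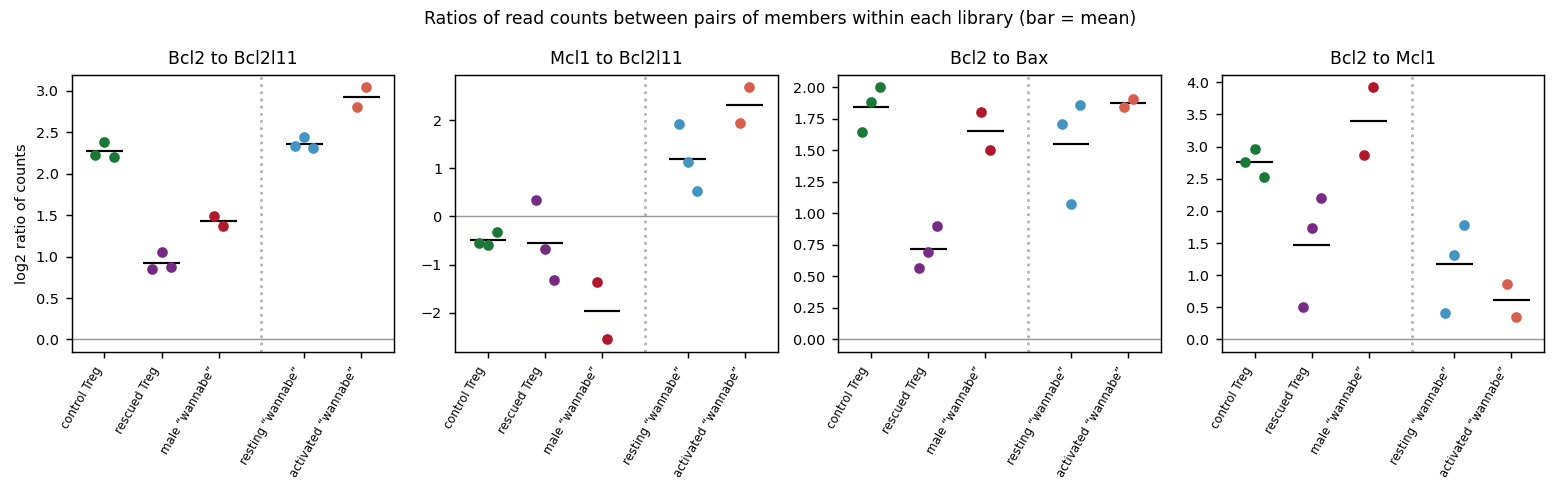
Log2 ratio of read counts (y axis) between pairs of members in each library, with group means as bars and female libraries right of the dotted line. For Bcl2 to Bcl2l11 the 3 rescued libraries lie between 0.85 and 1.06 and the 3 control libraries between 2.20 and 2.38, and for Mcl1 to Bcl2l11 the rescued libraries spread from -1.32 to 0.35.

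Around the members, genes of the same pathways were examined in lists. Over all genes the share called was 2.3% between rescued and control Treg cells and 16.2% between control Treg cells and “wannabes”. It was 14.1% between rescued Treg cells and “wannabes” and 22.5% between activated and resting “wannabes”, and the counts of each list stand beside these shares. Of 13 other BCL-2 family genes, 11 were tested between rescued and control Treg cells and none was called in edgeR, with 2 at an unadjusted p under 0.05. Bik, a BH3-only gene, was lower in control Treg cells than in male “wannabes” (log2 -1.77 ± 0.52 SE, edgeR adjusted p = 0.0386), as 1 of 11 tested. Between activated and resting “wannabes” 1 of 10 was higher and 1 lower. They were Bcl2l14 at log2 1.43 ± 0.31 SE (edgeR adjusted p = 0.0226) and Bnip3l, a mitophagy receptor, at log2 -0.29 ± 0.07 SE (edgeR adjusted p = 0.031). Of the 4 Bcl2a1 genes none was called between rescued and control Treg cells, although all 4 had higher counts in every rescued library, as did 12.6% of all genes. These 4 share sequence, so they are not separate observations, and Bcl2a1c had only 3.65 to 15.6 normalized counts in both groups.

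Downstream of the members, Parp1, a DNA repair gene, was lower in control Treg cells (log2 -0.75 ± 0.16 SE) and in rescued Treg cells (-0.76 ± 0.16, edgeR adjusted p = 0.00847) than in “wannabes”. Between activated and resting “wannabes” Apaf1, the scaffold of the apoptosome, was higher by log2 0.59 ± 0.11 SE and Cycs, cytochrome c, by 0.43 ± 0.10, and both passed the test. Of 8 genes for IAP proteins and their antagonists, 1 was called between activated and resting “wannabes”. This was Birc5 (survivin), which rises in dividing cells, at log2 3.36 ± 0.26 SE (edgeR adjusted p = 0.000644). Between control Treg cells and “wannabes” Birc5 was lower (log2 -2.05 ± 0.53 SE, edgeR adjusted p = 0.0227) and Xiap (1.11 ± 0.34) and Birc6 (0.53 ± 0.16) were higher. No gene of this list was called in edgeR between rescued and control Treg cells or between rescued Treg cells and “wannabes”, with 1 at an unadjusted p under 0.05 in each.

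In the death receptor pathway Fas, the receptor for Fas ligand, was the 1 gene of 10 called between rescued and control Treg cells. Rescued Treg cells averaged 1436 ± 159.5 normalized counts of Fas and control Treg cells 3530.0 ± 671 (SD, n = 3), a log2 fall of -1.30 ± 0.19 SE (edgeR adjusted p = 0.0079). The adaptors Tradd (log2 1.24 ± 0.23 SE) and Ripk1 (1.14 ± 0.22) and Fas (0.84 ± 0.21) were the 3 of 10 called between control Treg cells and “wannabes”, all higher in control Treg cells, and Ripk1 (1.79 ± 0.22) and Tradd (1.57 ± 0.24) were the 2 called between rescued Treg cells and “wannabes”, both higher in rescued Treg cells. Between activated and resting “wannabes” Fadd was higher (log2 0.65 ± 0.18 SE, edgeR adjusted p = 0.0446) and Tnfrsf1a, a TNF receptor, was lower (-0.69 ± 0.13, adjusted p = 0.0128). Of the p53 list, which holds regulators and targets of the factor that also drives Bbc3 and Pmaip1, Cdkn1a was the 1 gene of 11 called between rescued and control Treg cells (log2 1.58 ± 0.31 SE, edgeR adjusted p = 0.0238). Cdkn1a, a cell cycle inhibitor, was lower in control (log2 -3.35 ± 0.34 SE) and in rescued Treg cells (-1.77 ± 0.33) than in “wannabes”, and higher in activated than in resting “wannabes” (2.04 ± 0.26). Of 11 genes tested, 2 were higher and 3 lower in control Treg cells than in “wannabes”, beside 16.2% of all genes called. In rescued Treg cells 3 were higher and 2 lower than in “wannabes” (14.1% of all genes). In activated “wannabes” 2 were higher and 2 lower than in resting “wannabes” (22.5% of all genes). In the male comparisons with “wannabes” Cdkn1a was joined by Gtse1 (log2 -2.37 ± 0.45 SE for control Treg cells) and Trp53inp1 (1.33 ± 0.23 for control and 1.52 ± 0.23 for rescued Treg cells). Perp had 0 reads in both “wannabe” libraries. The mean of the rescued Treg libraries was at least 13.5-fold higher, counted against a floor of 3 reads per library. Those rescued libraries spread from 18.9 to 72.5 normalized counts, so that the bound depends on the highest of them. In activated against resting “wannabes” Gtse1 was higher (log2 2.54 ± 0.17 SE) and Trp53inp1 lower (-0.72 ± 0.09).

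Of 13 regulators of BCL-2 family transcripts and proteins, none was called in edgeR between rescued and control Treg cells, with 6 at an unadjusted p under 0.05. Without the share of all genes at that unadjusted p, the 6 cannot be read as a result about this list. Control Treg cells had more Foxo1 (log2 1.30 ± 0.21 SE, edgeR adjusted p = 0.0025) and Foxo3 (1.13 ± 0.35, adjusted p = 0.0478) than “wannabes”, the forkhead factors known to act on Bcl2l11, and more Pim1 (1.09 ± 0.30, adjusted p = 0.0311), a kinase that inactivates BAD. Of the list, 3 genes were higher and 1 lower in control Treg cells. Rescued Treg cells had more Bag1 (log2 2.52 ± 0.65 SE, edgeR adjusted p = 0.025; 1.38 without rescued replicate 1, adjusted p = 0.0385), Pim1 (1.80 ± 0.31, adjusted p = 0.00311) and Dynll2 (1.26 ± 0.37, adjusted p = 0.0428) than “wannabes”, among 4 higher and none lower. Between activated and resting “wannabes” 2 of 13 were higher and 4 lower, led by Trim17 at log2 -1.67 ± 0.16 SE (edgeR adjusted p = 0.00123), Dynll1, the light chain that holds BIM at the cytoskeleton, at -0.76 ± 0.08 and Pim2 at 0.59 ± 0.13. Of 9 mitochondrial fission, fusion and porin genes none was called in edgeR between rescued and control Treg cells, with 1 at an unadjusted p under 0.05. Mff and Mfn1 were higher in control (log2 1.79 ± 0.21 and 1.78 ± 0.31 SE) and in rescued Treg cells (1.98 ± 0.21 and 2.39 ± 0.32) than in “wannabes”, while Mfn2 was lower (-0.65 ± 0.18 and -0.61 ± 0.18). Vdac3 was the 1 gene of this list called between activated and resting “wannabes” (log2 0.34 ± 0.08 SE, edgeR adjusted p = 0.0323).

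**Figure D4:**
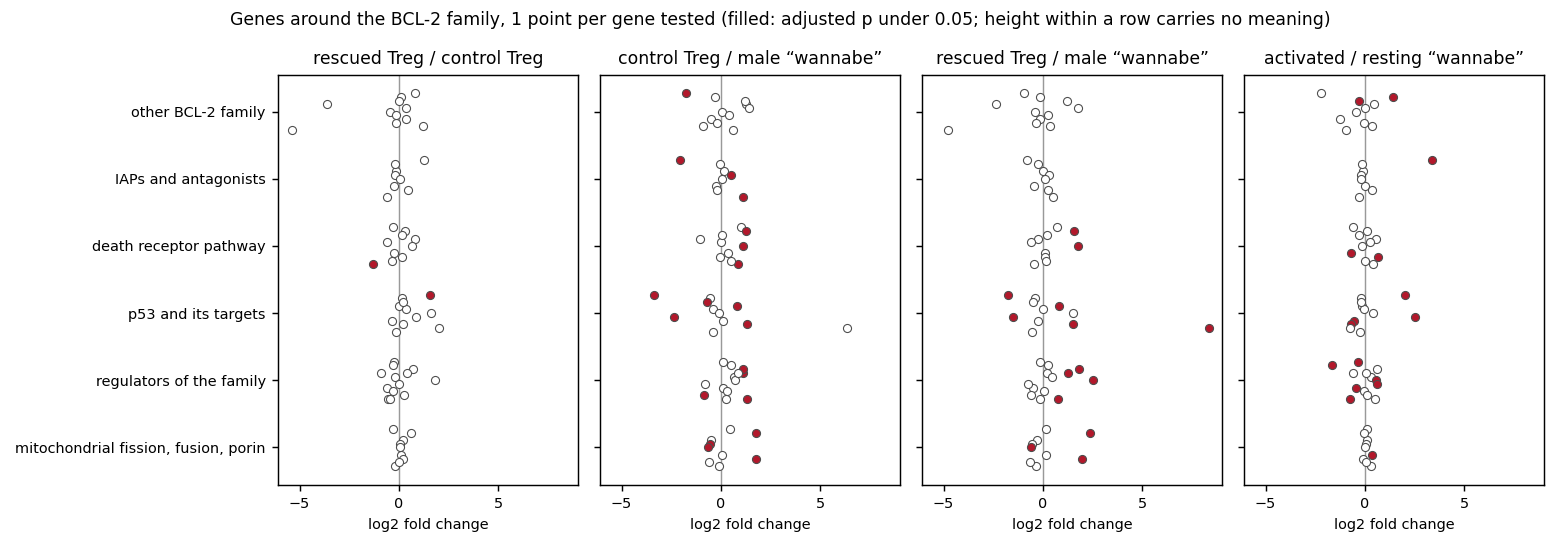
Log2 fold change (x axis) of each tested gene of 6 pathway lists in 4 comparisons, filled where the adjusted p was under 0.05. Between rescued and control Treg cells 2 genes of these lists are filled, Fas and Cdkn1a, and the point beyond 8 for rescued Treg cells against “wannabes” is Perp, whose “wannabe” libraries held 0 reads.

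Many of these calls in the pathway lists were lost when 1 library was left out, an alternative chosen after seeing the data. Between rescued and control Treg cells the call of Fas held whichever library was left out, and that of Cdkn1a did not (adjusted p up to 0.108). Between control Treg cells and “wannabes” the calls of Parp1, Tradd, Ripk1, Cdkn1a, Gtse1, Trp53inp1, Foxo1, Mff and Mfn1 held. Those of Bik, Birc5, Xiap, Birc6, Fas, Foxo3, Pim1 and Mfn2 were lost without at least 1 library. Bik stood at log2 -1.09 without “wannabe” replicate 2 (adjusted p = 0.31) and Birc5 at -1.38 without “wannabe” replicate 1 (adjusted p = 0.144). Between rescued Treg cells and “wannabes” Ripk1, Tradd, Cdkn1a, Trp53inp1, Pim1, Mff and Mfn1 held, whereas Parp1, Bag1, Dynll2, Perp and Mfn2 were lost without at least 1 library. In activated against resting “wannabes” Birc5, Cdkn1a, Gtse1, Trim17 and Dynll1 held. Bcl2l14, Bnip3l, Apaf1, Cycs, Fadd, Pim2 and Vdac3 were lost when either of the activated libraries was left out, and Tnfrsf1a and Trp53inp1 without activated replicate 1.

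Some markers of other cells moved beside these results. Between activated and resting “wannabes” the B cell gene Cd79b was higher (log2 1.34 ± 0.15 SE, edgeR adjusted p = 0.00193) and the plasma cell gene Sdc1 lower (-3.87 ± 0.41, adjusted p = 0.00167). The B cell list summed to 22.6 to 24.8 CPM in activated and 10.2 to 12.3 CPM in resting cells, and the plasma cell list to 236 to 246 and 297 to 335 CPM. That plasma cell sum was mostly Xbp1, and the 3 tested genes of the list were all lower in activated cells without overlap (median log2 -3.87). Jchain averaged 8.61 CPM in resting cells, with libraries from 42.8 to 589 normalized counts, and 0.401 CPM in activated cells. Beside the Bcl2l1 and Bid calls of that comparison, activated cells also had higher sums, without overlap, for monocytes and macrophages (4.92 to 6.37 against 1.35 to 3.85 CPM), dendritic cells (6.75 to 8.04 against 3.30 to 4.395 CPM) and CD8 T cells (14.2 to 15.9 against 9.72 to 13.9 CPM). Against male “wannabes”, control Treg cells had less Klrb1c, an NK cell gene (log2 -2.86 ± 0.76 SE), less Hba-a1, a globin gene (-3.17 ± 0.98), and more Xbp1, a plasma cell gene that T cells also use (1.64 ± 0.22). Without “wannabe” replicate 1 Hba-a1 stood at -1.61 (adjusted p = 0.466) and without replicate 2 at -3.95, and its call was also lost without any 1 control library or without rescued replicate 1 or 2. Klrb1c stood at -3.45 without control replicate 3, and its call was lost without control replicate 1 (adjusted p = 0.08), control replicate 2 (adjusted p = 0.0769) or “wannabe” replicate 2 (adjusted p = 0.0992). Beside the Bcl2a1b and Bcl2l11 calls of that comparison, the sums were lower in control Treg cells than in male “wannabes”, without overlap, for monocytes and macrophages (0.36 to 1.53 against 2.46 to 5.81 CPM), NK cells (0.612 to 1.38 against 4.87 to 8.77 CPM) and dendritic cells (0.892 to 1.93 against 4.203 to 7.36 CPM). The plasma cell sum was higher in control Treg cells (112 to 132 against 31.4 to 47.7 CPM). Rescued Treg cells also had more Xbp1 than male “wannabes” (log2 2.22 ± 0.22 SE, edgeR adjusted p = 0.000253), and the plasma cell list summed to 167 to 195 CPM in rescued Treg cells and 31.4 to 47.7 CPM in male “wannabes”, beside the Bcl2 and Bbc3 calls of that comparison. The dendritic cell sum was lower there, at 2.17 to 3.72 against 4.203 to 7.36 CPM. Between rescued and control Treg cells none of 22 tested markers of other cell types was called in edgeR, with 5 at an unadjusted p under 0.05, all 5 higher in rescued Treg cells. Summed markers of several cell types were nevertheless separate between these groups, and all were higher in rescued Treg cells. They stood at 3.83 to 8.06 against 0.36 to 1.53 CPM for monocytes and macrophages, 3.47 to 8.34 against 0.612 to 1.38 CPM for NK cells and 2.17 to 3.72 against 0.892 to 1.93 CPM for dendritic cells. The plasma cell sum stood at 167 to 195 against 112 to 132 CPM, but in every group it was mostly Xbp1, which averaged 183 CPM in rescued Treg cells, 123 CPM in control Treg cells, 39.4 CPM in male “wannabes”, 240.2 CPM in activated and 296 CPM in resting “wannabes”. In the male groups Sdc1 averaged at most 0.989 CPM and Jchain at most 0.193 CPM, and Sdc1 was at log2 -0.53 ± 1.68 SE in rescued against control Treg cells (edgeR adjusted p = 0.934). The macrophage gene Cd68 was at log2 3.01 ± 0.81 SE (edgeR adjusted p = 0.0887). The B cell list overlapped, at 38.2 to 42.6 and 33.2 to 44.9 CPM. The part of these cells in the changes of the members was not tested.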

How the data were processed

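Per the study's methods and the labels, RNA from doubly sorted cells was amplified with the SMART-Seq v4 kit, made into libraries with the KAPA Hyper Prep kit and sequenced as paired 50-base reads. The authors aligned the reads to GRCm38 with STAR (2.7.3a) and counted reads per gene. The deposited tables, 1 for each experiment, hold raw counts per gene symbol; the gene annotation and any use of strand are not given in the sources used here. From the deposited counts the authors fitted DESeq2 (1.28.1); no column of comparisons was used here.

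Here 4 unnamed rows, at most 0.00841% of a library, were left out. Counts were scaled by TMM and tested with edgeR (4.0.16, R 4.3.3; filterByExpr, quasi-likelihood test), and p-values were adjusted by Benjamini and Hochberg over 14925 genes in the 8 male libraries and 13166 in the 5 female libraries, and over 15201 for the difference between changes in all 13. Adjusted p under 0.05 was called. DESeq2 (1.42.0) and the other settings described below were alternatives. Columns from other series numbered 0. Shares and levels per kilobase used GENCODE M21 exon unions; promoters were taken from RefSeq (GRCm38.p6). On simulated counts for 14418 genes with the male means, edgeR recovered 19 of 50 genes changed by 2-fold and 44 of 50 changed by 4-fold between rescued and control Treg cells, and for 12944 genes 46 of 50 and 50 of 50 between activated and resting “wannabes”, with 2 and 16 false calls in all. Recovery at 2-fold was lower elsewhere, with 14 of 50 between control Treg cells and “wannabes” and 11 of 50 between rescued Treg cells and “wannabes”. For the difference between changes it was 5 of 50 at 2-fold and 36 of 50 at 4-fold. Depth was similar in all libraries, and intervals cover the spread between libraries.

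All 10 members are named, and from each pathway list up to 3 called genes with the largest fold change in each comparison. Some genes of these lists, and the counts of 1 list that holds them, are not reported here. Cd79b, Sdc1, Klrb1c, Hba-a1 and Xbp1, the markers of other cell types that were called, and Cd68, Ikzf2 and Jchain were named after their values were seen. The members and lists were chosen with earlier results of these data known. Samples with the same replicate number did not deviate together (correlations of their deviations from group means -0.027 to 0.084 over 7 male pairs and -0.029 to -0.017 over 2 female pairs), so the main fits hold no replicate block.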

Additional observations from a re-analysis of the deposited data

Results flagged for a closer look

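Among the members, the pathway lists and Foxp3, the change from control to rescued Treg cells differed from the change from resting to activated “wannabes” for 4 genes in the test of the difference itself, fitted by edgeR over all 13 libraries, which called 233 genes (1.53%) in all. For Bcl2 the difference was log2 -1.367 (SE 0.24, adjusted p = 0.013), with a fall of -1.09 in Treg cells and a value of 0.29 that did not pass the test in “wannabes”. For Bcl2l14 it was -1.865 (SE 0.41, adjusted p = 0.0393), with a rise of 1.43 in “wannabes”, where both activated libraries held at most 80.2 normalized counts. For Fas it was -1.712 (SE 0.29, adjusted p = 0.0119), with a fall of -1.30 in Treg cells. For Foxp3, whose locus was altered by design, it was 2.549 (SE 0.24, adjusted p = 0.000638). Of the marker lists, Ikzf2, a Treg cell gene, also passed (-1.999, adjusted p = 0.0213). The calls of Bcl2 (adjusted p = 0.0716 and 0.0603) and Fas (0.0585 and 0.0659) were lost when either of the activated libraries was left out. That of Bcl2l14 was lost without control replicate 2 or 3 or any 1 of the rescued, activated or resting libraries (adjusted p 0.0502 to 0.239), and that of Ikzf2 without control replicate 3, rescued replicate 2, either activated library or resting replicate 1 or 2 (adjusted p 0.0515 to 0.0991). Sex, age, Foxp3 allele and treatment differ between the arms and cannot be told apart from the cell state.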

How the results depend on the processing

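Size factors in place of TMM, a filter on mean normalized counts and the other filters changed no call of a member except Mcl1 in rescued Treg cells against “wannabes”, called without a filter (adjusted p = 0.0403). DESeq2 called 1195 genes and 2 members between rescued and control Treg cells (main 343 and 1), 3767 genes between control Treg cells and “wannabes” (main 2416), 3335 genes and 4 members between rescued Treg cells and “wannabes” (main 2105 and 2), and 805 genes and 2 members for the difference between changes (main 233 and 1). For rescued against control Treg cells 612 genes passed with no filter and 580 with only the groups compared in the fit. The cause of these shifts was not tested.

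The replicate number rests on the titles alone, and the samples did not deviate in pairs. With the replicate block 1 member in place of 2 was called between control Treg cells and “wannabes”, since Bcl2a1b fell short (log2 -0.75, adjusted p = 0.0518) and Bcl2l11 was kept (-0.84, adjusted p = 0.0137), and 4 in place of 2 between activated and resting “wannabes”, with Bcl2 (0.44, adjusted p = 0.0481) and Bbc3 (-0.61, adjusted p = 0.0454) added and Bcl2a1b turned to -0.068. The block changed no other call of a member.

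With single libraries left out, the counts called ranged from 114 to 598 genes between rescued and control Treg cells, from 1549 to 2423 genes and 0 to 2 members between control Treg cells and “wannabes”, from 1 to 3 members between rescued Treg cells and “wannabes”, from 751 to 3215 genes and 0 to 3 members between activated and resting “wannabes”, and from 44 to 430 genes and 0 to 1 members for the difference. The count of 114 was without control replicate 1 and that of 598 without “wannabe” replicate 1. That of 751 was without activated replicate 1 and that of 44 without activated replicate 2. A group left with 1 library was assumed to vary like the other groups. Members whose sign turned without some library were never called there. They were Bcl2l1 (-0.137 to 0.249), Mcl1 (-0.211 to 0.546) and Bax (-0.012 to 0.075) between rescued and control Treg cells, Bcl2 (-0.126 to 0.257), Bid (-0.125 to 0.311) and Bax (-0.468 to 0.217) between control Treg cells and “wannabes”, Bax (-0.432 to 0.254) between rescued Treg cells and “wannabes”, Bcl2a1b (-0.080 to 0.261) and Bax (-0.084 to 0.057) between activated and resting “wannabes”, and Bak1 (-0.055 to 0.326) and Bax (-0.010 to 0.128) for the difference. Of the values of single members under all alternatives, 653 kept their side of the threshold and direction, 16 fell short of it, 13 came to pass it and 17 turned in sign. Counts were lowest for Bak1 (at most 304 normalized counts in any library) and, in male “wannabes”, for Bbc3 (101 and 229), which limits the precision of their fold changes.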

Other observations

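For each member called in at least 1 comparison, the genes with the most similar pattern were taken as those at the smallest Euclidean distance in log2 CPM over 13 libraries, centred within each experiment, among 12971 genes. The nearest to Bcl2 were Plscr3 (distance 0.556), Degs2 (0.689) and Nsg2 (0.722), where the median gene stood at 2.15. Those nearest to Bcl2l1 were Epsti1 (0.562), Gsap (0.652) and Ksr1 (0.658), beside a median of 1.90. Nearest to Bid came Ifngr1, the interferon-gamma receptor (0.745), Tnfrsf18, which encodes GITR (0.753), and Gm3317 (0.761), beside a median of 2.00. Nearest to Bcl2l11 were Mbd1 (0.509), Tln1 (0.595) and Zc3h18 (0.6), nearest to Bcl2a1b were Tmed3 (0.442), Txndc17 (0.534) and 9030624G23Rik (0.557), and nearest to Bbc3 were Fam134a (0.991), Tmem55b (1.097) and Atp13a1 (1.12), beside medians of 1.93, 1.92 and 3.25. The libraries share depth and amplification, and the distances carry no test.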
